A study of Mus musculus with 5 samples.

Results

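Collagen chain genes encode the α chains that wind together into the triple-stranded molecules of the extracellular matrix. They were taken as every gene whose symbol has the form Col, a number, a and a number, and 44 of the 24421 genes listed in both deposited expression tables met this rule. They were grouped by the assembly they form: 11 fibrillar chains, 9 network-forming chains, 9 fibril-associated chains with interrupted helices (FACIT) and 15 others, which hold the beaded-filament type VI chains, the anchoring-fibril chain, the transmembrane chains, the multiplexins and a pair left unclassed. RNA-seq had been performed on 5 mouse libraries, 1 per group: mouse embryonic fibroblasts (MEFs, passaged cultures from CF-1 embryos), an induced pluripotent stem cell (iPSC) line, untreated cells of the embryonic stem line V6.5, V6.5 cells stably expressing a non-targeting control shRNA (NTC), and V6.5 cells stably expressing an shRNA against Gldc (shGldc), the decarboxylase of the glycine cleavage system. The labels describe the ES and iPS cells as grown without feeder cells on gelatin, in serum replacement with leukaemia inhibitory factor, and the MEFs as grown in serum. The methods name a cell repository as the source of iPS lines, and the donor cell and factors of the sequenced line are not given in the sources used here. MEFs, iPSCs and untreated V6.5 cells share a table, and the NTC and shGldc cells share another that was made separately.

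Collagen molecules are secreted as procollagens after prolyl and lysyl residues have been hydroxylated and the helix has folded on the chaperone Serpinh1 (Hsp47) in the endoplasmic reticulum. Their propeptides are then cut off, and lysyl oxidases crosslink the assembled fibrils. Fibrillar types I, III and V make up most of the matrix that fibroblasts lay down, whereas the type IV network belongs to basement membranes, which the epithelia of the early embryo produce.

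Levels are FPKM, sequenced fragments scaled to transcript length and to library size, so that they can be set side by side between genes. With 1 library per group there was no replicate spread and no p-value, and every difference below describes these libraries only. Differences are given as log2 of (FPKM + 0.1), which understates the change of low genes. A gene entered a comparison if its FPKM was at least 1 in either library, and the line for a difference was 2-fold. Depth read from the spacing of low values was 22100000 to 24700000 fragments in the MEF, iPSC and untreated V6.5 libraries and about 14500000 in the other pair, where it is known only within a factor of 2. In bulk RNA, fewer cells of a type and less RNA per cell cannot be told apart.

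The labels were checked against cell type markers. All 7 pluripotency markers had an FPKM of at least 1 in each of the 4 pluripotent libraries, with sums of 3623 to 6699 FPKM, against 3.15 in MEFs. All 9 fibroblast markers passed 1 FPKM in MEFs, where they summed to 5206 FPKM, against 103 to 278 in the pluripotent libraries. MEFs also held macrophage markers, 301 FPKM in sum over 8 genes against 10.9 to 20.6 elsewhere. Sums over 5 endothelial, 5 chondrocyte and 4 skeletal muscle markers stayed at or under 38.3 FPKM in every library. Gldc was 70.8 FPKM in iPSCs, 59.7 in untreated V6.5 cells, 74.7 in NTC cells and 2.07 in shGldc cells, or 2.77% of NTC, and 0.123 in MEFs.

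The promoters of 6 chains are printed to show the genes the results turn on: Col1a2 and Col3a1, at high levels in MEFs; Col4a1 and Col4a2, a head-to-head pair; and Col9a2 and Col13a1, higher in the pluripotent libraries. Each run covers 250 bases before to 50 after the start annotated by RefSeq on GRCm38.p6, 5′ to 3′ on the gene's strand, and capitals mark the TATAAA motif, the CCAAT motif and the GGGCGG motif, on either strand, so that a motif on the opposite strand appears as its reverse complement. Col1a2 lies at chr6:4505368-4505667 on the plus strand, Col3a1 at chr1:45311288-45311587 on the plus strand, Col4a1 at chr8:11312777-11313076 on the minus strand, Col4a2 at chr8:11312555-11312854 on the plus strand, Col9a2 at chr4:121039316-121039615 on the plus strand and Col13a1 at chr10:61979059-61979358 on the minus strand.
Col1a2: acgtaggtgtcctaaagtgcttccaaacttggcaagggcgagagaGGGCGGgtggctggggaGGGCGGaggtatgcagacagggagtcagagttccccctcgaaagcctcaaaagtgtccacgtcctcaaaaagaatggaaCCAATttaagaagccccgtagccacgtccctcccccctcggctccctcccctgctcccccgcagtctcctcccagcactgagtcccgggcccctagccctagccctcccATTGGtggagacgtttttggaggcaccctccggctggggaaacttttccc
Col3a1: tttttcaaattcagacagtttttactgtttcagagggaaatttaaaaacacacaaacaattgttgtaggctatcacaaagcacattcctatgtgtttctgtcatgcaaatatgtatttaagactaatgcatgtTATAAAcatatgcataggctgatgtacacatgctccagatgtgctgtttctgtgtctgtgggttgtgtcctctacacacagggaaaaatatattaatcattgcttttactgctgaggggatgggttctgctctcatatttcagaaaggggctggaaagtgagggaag
Col4a1: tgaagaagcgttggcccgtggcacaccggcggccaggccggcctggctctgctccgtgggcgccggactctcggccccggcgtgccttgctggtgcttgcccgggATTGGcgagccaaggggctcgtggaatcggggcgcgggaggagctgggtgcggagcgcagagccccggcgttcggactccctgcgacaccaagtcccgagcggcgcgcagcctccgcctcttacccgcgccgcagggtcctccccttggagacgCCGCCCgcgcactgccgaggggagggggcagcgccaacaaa
Col4a2: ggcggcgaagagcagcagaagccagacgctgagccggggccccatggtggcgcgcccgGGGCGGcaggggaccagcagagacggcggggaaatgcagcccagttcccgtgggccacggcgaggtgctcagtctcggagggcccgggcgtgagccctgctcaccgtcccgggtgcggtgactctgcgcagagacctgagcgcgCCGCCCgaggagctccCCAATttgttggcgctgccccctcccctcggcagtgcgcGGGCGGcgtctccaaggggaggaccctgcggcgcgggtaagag
Col9a2: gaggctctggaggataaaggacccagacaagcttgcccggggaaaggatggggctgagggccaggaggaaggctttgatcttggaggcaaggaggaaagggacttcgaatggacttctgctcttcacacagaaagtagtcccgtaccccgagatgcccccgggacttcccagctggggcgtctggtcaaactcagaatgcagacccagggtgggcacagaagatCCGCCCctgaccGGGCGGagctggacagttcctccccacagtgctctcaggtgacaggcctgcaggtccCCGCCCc
Col13a1: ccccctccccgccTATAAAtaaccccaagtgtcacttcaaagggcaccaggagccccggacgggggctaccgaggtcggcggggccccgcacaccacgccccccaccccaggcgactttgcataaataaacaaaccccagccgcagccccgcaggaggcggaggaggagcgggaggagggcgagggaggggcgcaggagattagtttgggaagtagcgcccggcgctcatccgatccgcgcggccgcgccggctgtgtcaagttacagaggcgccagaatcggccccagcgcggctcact

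The Col4a1 and Col4a2 windows share 78 bases, chr8:11312777-11312854, which both genes read from opposite strands. The shared stretch holds 1 GGGCGG, which appears as CCGCCC in the Col4a1 run. GGGCGG also occurs in Col1a2 and Col9a2, whereas the Col3a1 window holds none and has no CG dinucleotide at all. RefSeq promoters matched 35 of the 44 chains and gave 38 windows. GGGCGG was found in 23 of these (60.5%) and in 35.7% of all 32851 promoters of this length. CCAAT was found in 13 (34.2%) against 37.4% of all, and TATAAA in 5 (13.2%) against 13.6%. The median number of CG dinucleotides was 11.5 in the collagen windows and 7 over all promoters. These matches describe letters in a window and are not binding sites.

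In MEFs the 44 chains summed to 8795 FPKM, 1.88% of the summed FPKM of all genes, and in the 4 pluripotent libraries to 108 to 192 FPKM, or 0.0206% to 0.0350%. Fibrillar chains held 83.4% of the collagen sum in MEFs, 27.5% in untreated V6.5 cells, 8.62% in iPSCs, 11.3% in NTC cells and 5.49% in shGldc cells. In the pluripotent libraries the class with the largest share was the 15 other chains, with 40.6% to 60.2%, and Col18a1 was the highest collagen in each. Col1a1 ranked 5th and Col1a2 14th among all genes in MEFs by FPKM. Of the 44 chains, 30 reached 1 FPKM in at least 1 library, and 24 of these 30 were highest in MEFs. The shares of all genes that met these conditions were not computed, so that the counts describe the chains only.

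**Figure D1:**
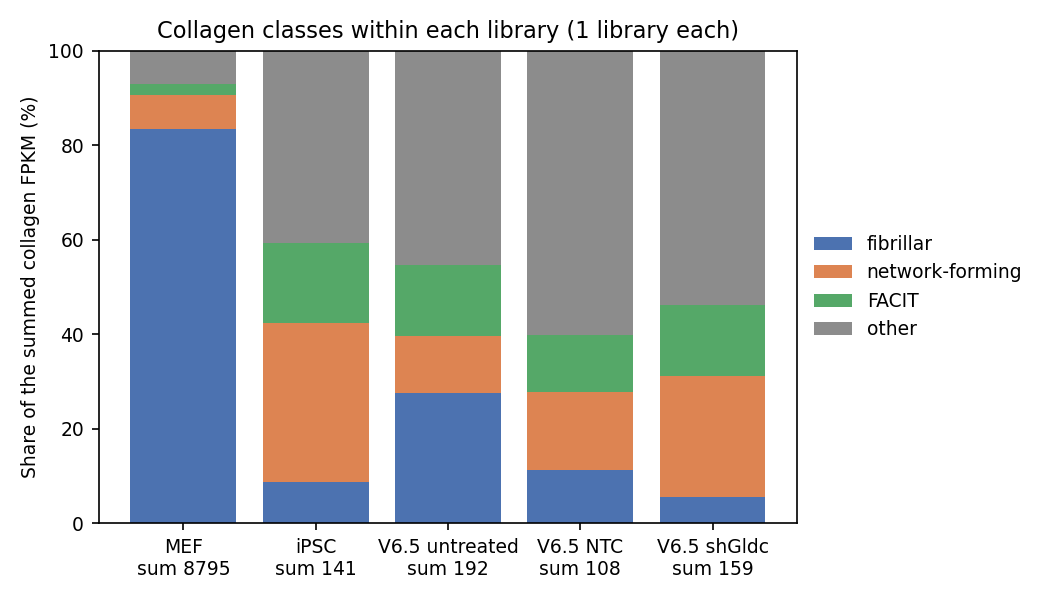
Share of the summed collagen FPKM (%) held by the 4 classes in each of the 5 libraries, with the sum under each bar. The fibrillar share is 83.4% in MEFs and 5.49% to 27.5% in the pluripotent libraries.

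**Figure D2:**
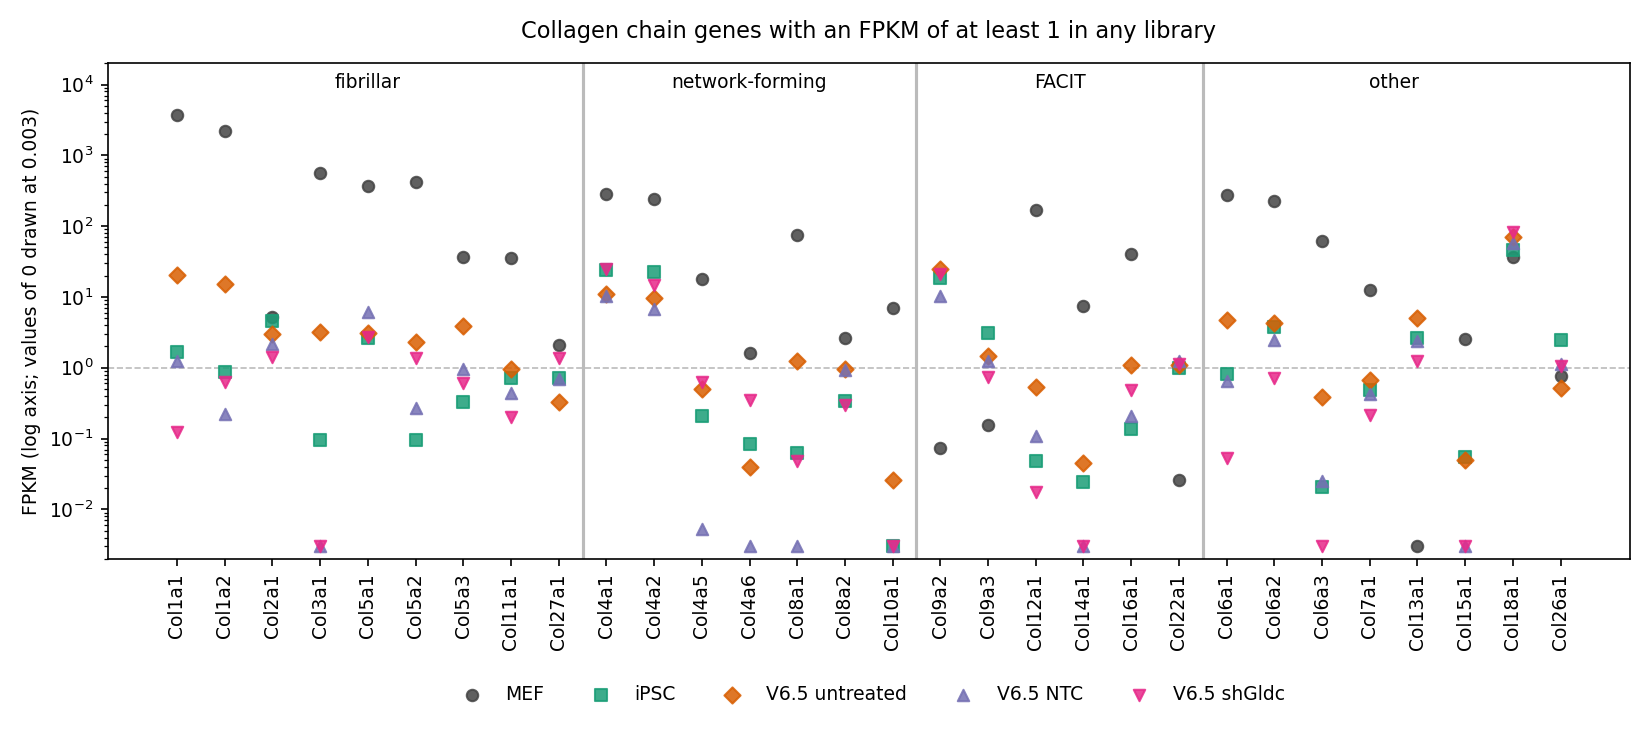
FPKM (log axis, values of 0 drawn at 0.003) of the 30 collagen chains that reached 1 FPKM in any library, by class, with 1 point per library and a dashed line at 1 FPKM. MEFs sit highest for all of them but Col9a2, Col9a3, Col22a1, Col13a1, Col18a1 and Col26a1.

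The fibrillar chains were the most abundant in MEFs and low in the pluripotent libraries. Col1a1 (chr11:94936224-94953042, plus strand), the α1 chain of type I collagen, was 3672 FPKM in MEFs, 1.68 in iPSCs, 20.5 in untreated V6.5 cells, 1.24 in NTC cells and 0.125 in shGldc cells. Col1a2 (chr6:4504814-4541544, plus strand), its α2 partner, was 2223, 0.857, 15.3, 0.225 and 0.621 FPKM in the same order. Col3a1, the type III chain of elastic tissues, was 571 FPKM in MEFs, 0.0965 in iPSCs, 3.21 in untreated V6.5 cells and listed at 0 in the shRNA pair. In all 3 genes MEFs were highest by more than 100-fold and untreated V6.5 cells stood above the other pluripotent libraries.

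The type V chains, which start and limit the width of type I fibrils, followed with less even spacing. Col5a1 was 369.8 FPKM in MEFs, 2.67 in iPSCs, 3.14 in untreated V6.5 cells, 6.14 in NTC cells and 2.72 in shGldc cells. Col5a2 was 416 FPKM in MEFs, 0.0941 in iPSCs, 2.33 in untreated V6.5 cells, 0.269 in NTC cells and 1.39 in shGldc cells. Col5a3 was 36.5, 0.327, 3.90, 0.957 and 0.602 FPKM. Col5a1 thus stayed above 2 FPKM in every pluripotent library, whereas Col5a2 and Col5a3 spread over more than 10-fold among them. The ratio of Col5a1 to Col5a2 was 0.889 in MEFs, 1.35 in untreated V6.5 cells, 28.3 in iPSCs, 22.8 in NTC cells and 1.95 in shGldc cells.

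Of the remaining fibrillar chains, Col11a1, of cartilage type XI, was 35.0 FPKM in MEFs and 0.198 to 0.967 elsewhere. Col2a1, the main fibrillar chain of cartilage, was 5.24 FPKM in MEFs, 4.61 in iPSCs, 2.95 in untreated V6.5 cells, 2.13 in NTC cells and 1.43 in shGldc cells, or 27.3% of MEFs in the last. Col27a1 was 2.08 FPKM in MEFs, 0.716, 0.327 and 0.692 in iPSCs, untreated V6.5 and NTC cells, and 1.37 in shGldc cells. Col11a2 and Col24a1 did not reach 1 FPKM in any library, with highest values of 0.354 in iPSCs and 0.385 in MEFs.

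Of the network-forming chains, Col4a1 and Col4a2 had a different order among the pluripotent libraries. Col8a1, Col8a2 and Col10a1 were highest in untreated V6.5 cells among them, as the type I and III chains were. Col4a1 and Col4a2, the chains of the common type IV network of basement membranes, were 288 and 241 FPKM in MEFs, 23.9 and 22.9 in iPSCs, 10.8 and 9.54 in untreated V6.5 cells, 10.2 and 6.67 in NTC cells and 24.9 and 14.5 in shGldc cells. They lie head to head on chromosome 8 (Col4a1 at chr8:11198423-11312826 on the minus strand, Col4a2 at chr8:11312805-11449287 on the plus strand), with starts 21 nt apart on mm10. Their ratio was 1.20 in MEFs, 1.04 in iPSCs, 1.14 in untreated V6.5 cells, 1.53 in NTC cells and 1.72 in shGldc cells. iPSC and shGldc cells were the higher pair and untreated and NTC cells the lower pair for both genes.

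The other type IV chains are arranged in the same way and were lower. Col4a5 and Col4a6, with starts 1309 nt apart on the X chromosome, were 17.9 and 1.60 FPKM in MEFs and at most 0.636 and 0.348 in the pluripotent libraries, both in shGldc cells. In NTC cells Col4a5 was 0.00519 FPKM and Col4a6 was listed at 0. Col4a3 and Col4a4, starts 72 nt apart on chromosome 1 and known from the kidney filter, were at or under 0.0352 FPKM in every library. Of the short network chains, Col8a1 was 76.2 FPKM in MEFs, 1.24 in untreated V6.5 cells and at most 0.0617 in the other 3. Col8a2 was 2.67 FPKM in MEFs and 0.302 to 0.969 elsewhere. Col10a1, of hypertrophic cartilage, was 7.04 FPKM in MEFs, 0.0258 in untreated V6.5 cells and listed at 0 in the rest.

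The FACIT chains, which decorate the surface of fibrils, fell on both sides. Col12a1 was 169 FPKM in MEFs, 0.0476 in iPSCs, 0.530 in untreated V6.5 cells, 0.109 in NTC cells and 0.0178 in shGldc cells. Col16a1 was 40.2 FPKM in MEFs, 0.136 in iPSCs, 1.11 in untreated V6.5 cells, 0.208 in NTC cells and 0.490 in shGldc cells. Col14a1 was 7.42 FPKM in MEFs and at most 0.0456 elsewhere. These 3 were highest in MEFs. Col9a2, a type IX chain best known from cartilage (chr4:121039385-121055322, plus strand), had the opposite order, with 0.0732 FPKM in MEFs, 18.8 in iPSCs, 24.8 in untreated V6.5 cells, 10.2 in NTC cells and 21.4 in shGldc cells. Its partner chains did not share these levels. Col9a3 was 0.155 FPKM in MEFs, 3.11 in iPSCs, 1.48 in untreated V6.5 cells, 1.24 in NTC cells and 0.733 in shGldc cells. Col9a1 was at most 0.240 in any library. Of the Col9a3 exons, 6.07% lie under exons of Tcfl5 on the opposite strand, and the library kit did not mark strand. Col22a1 was 0.0263 FPKM in MEFs and 0.993 to 1.23 in the pluripotent libraries. Beside the type IX chains, the cartilage gene Acan was 1.90 to 3.85 FPKM in the pluripotent libraries and 0.702 in MEFs. Sox9 went the other way, with 0 to 0.840 FPKM there and 4.44 in MEFs. In untreated V6.5 cells over MEFs, 2 of 3 chondrocyte markers tested were higher, Acan and Matn3, and 1 lower, Sox9, beside 30.3% and 23.3% of all genes. The sums of the 5 markers, 4.01 to 7.13 FPKM in the pluripotent libraries and 6.09 in MEFs, hide these opposite differences. Col19a1 and Col20a1 stayed under 1 FPKM throughout, with 0.791 in iPSCs as the highest value.

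Among the other chains, type VI, which forms beaded filaments around cells, was a MEF collagen. Col6a1 was 271 FPKM in MEFs, 0.803 in iPSCs, 4.80 in untreated V6.5 cells, 0.650 in NTC cells and 0.0523 in shGldc cells. Col6a2 was 224, 3.82, 4.24, 2.50 and 0.720 FPKM and Col6a3 62.2, 0.0208, 0.385, 0.0248 and 0 in the same order. The classical type VI molecule combines these chains, and the ratio of Col6a1 to Col6a2 was 1.21 in MEFs and 1.13 in untreated V6.5 cells but 0.210 in iPSCs, 0.260 in NTC cells and 0.0727 in shGldc cells. Col6a4, Col6a5 and Col6a6 were at most 0.227 FPKM in any library.

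Col7a1, the anchoring fibril chain of skin, was 12.5 FPKM in MEFs and 0.215 to 0.682 elsewhere, and the multiplexin Col15a1 was 2.54 FPKM in MEFs and at most 0.0551 elsewhere. Col18a1, the basement membrane chain whose end is released as endostatin (chr10:77052178-77166548, minus strand), had the flattest profile of the abundant chains: 37.2 FPKM in MEFs, 45.3 in iPSCs, 70.2 in untreated V6.5 cells, 57.0 in NTC cells and 81.4 in shGldc cells. Col13a1, a transmembrane chain of cell adhesions, was listed at 0 in MEFs and was 2.62 FPKM in iPSCs, 5.12 in untreated V6.5 cells, 2.42 in NTC cells and 1.26 in shGldc cells. Col26a1 was 0.768 FPKM in MEFs, 2.45 in iPSCs, 0.525 in untreated V6.5 cells, 1.12 in NTC cells and 1.07 in shGldc cells. Col17a1, Col23a1, Col25a1 and Col28a1 stayed under 1 FPKM, with highest values of 0.603, 0.351, 0.159 and 0.344.

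The comparison of untreated V6.5 cells with MEFs addressed how pluripotent cells differ from somatic cells. Of 29 collagen chains with 1 FPKM in either library, 23 were at least 2-fold lower in V6.5 cells and 4 higher, beside 23.3% lower and 30.3% higher among all 12840 genes tested. The median difference of the chains was -4.91 on the log2 scale, beside 0.25 over all genes. By class, the lower chains were 8 of 9 fibrillar, 7 of 7 network-forming, 3 of 6 FACIT and 5 of 7 others. The largest differences were -8.07 for Col12a1, -7.48 for Col1a1, -7.43 for Col3a1 and -7.42 for Col5a2. Col9a2 was higher by 7.17, Col22a1 by 3.23 and Col9a3 by 2.63, and Col13a1 gives no ratio against a MEF value of 0. Col2a1 at -0.81 and Col18a1 at 0.92 lay within the 2-fold line.

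The comparison of iPSCs with MEFs, which uses the same MEF library, gave 23 lower and 4 higher chains of 29 tested, beside 21.3% lower and 31.5% higher among all 13032 genes. The lower chains were 8 of 9 fibrillar, 7 of 7 network-forming, 3 of 5 FACIT and 5 of 8 others. The median was -5.84 beside 0.31 over all genes. Differences went further down than in untreated V6.5 cells for the type I, III and V chains, with -11.50 for Col3a1, -11.18 for Col1a2, -11.07 for Col5a2 and -11.01 for Col1a1. Those of Col4a1 and Col4a2 were smaller, -3.59 and -3.39 in iPSCs beside -4.72 and -4.64 in untreated V6.5 cells. The higher chains were Col9a2 at 6.77, Col9a3 at 3.66, Col26a1 at 1.55 and Col13a1.

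Directly between the pluripotent lines, iPSCs were at least 2-fold lower than untreated V6.5 cells in 8 of 19 chains and higher in 4, beside 7.44% lower and 10.1% higher among all 12323 genes, with a median of -0.63 beside 0.04. The lower chains were Col1a1 (-3.54), Col1a2 (-4.01), Col3a1 (-4.08), Col5a2 (-3.65), Col5a3 (-3.22), Col8a1 (-3.05), Col16a1 (-2.36) and Col6a1 (-2.44). The higher chains were Col26a1 (2.03), Col4a2 (1.25), Col4a1 (1.13) and Col9a3 (1.03). With the NTC library in place of the untreated one, an alternative chosen after seeing the data that crosses the tables, 12 chains were tested, of which 1 was lower, Col5a1 (-1.17), and 5 were higher, beside 7.81% lower and 16.3% higher among all genes. The 5 were Col4a2, Col9a3, Col4a1, Col2a1 and Col26a1. Of the 8 chains lower against untreated cells, only Col1a1 (0.41) reached 1 FPKM in iPSCs or NTC cells. The other 7 lay under 1 FPKM in both, so that their values, from -1.31 for Col5a3 to 1.56 for Col1a2, lean on the 0.1 added to each FPKM.

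The untreated V6.5 library carried the MEF chains at a low percentage of the MEF level. For the 7 fibrillar chains with a MEF FPKM of at least 20, it stood at a median of 0.689% of MEFs, with Col1a1 at 0.559%, Col1a2 at 0.689%, Col3a1 at 0.563%, Col5a2 at 0.560%, Col5a1 at 0.849%, Col11a1 at 2.76% and Col5a3 at 10.7%. The same median was 0.0456% in iPSCs, 0.0647% in NTC cells and 0.334% in shGldc cells. Over all 16 chains at that MEF level the medians were 1.70% in untreated V6.5 cells, 0.317% in iPSCs, 0.378% in NTC cells and 0.328% in shGldc cells. Other fibroblast genes, chosen after their values were seen, were present beside them: the mesenchymal factor Prrx1 at 1.11%, the crosslinking enzyme Lox at 1.56% and the proteoglycans Bgn at 2.05% and Dcn at 4.25% of MEFs. In NTC cells Prrx1, Lox and Dcn were listed at 0 and Bgn was 0.0702 FPKM. The macrophage gene Lyz2 was 1.59 FPKM in untreated V6.5 cells, 142 in MEFs and listed at 0 in NTC and shGldc cells. The 8 macrophage markers summed to 10.9 FPKM in untreated V6.5 cells, 13.4 in NTC cells and 13.2 in shGldc cells, of which Cd68 made 9.04, 13.0 and 12.7 FPKM. Csf1r, C1qa, C1qb and Adgre1 had 0.0366 to 0.197 FPKM in untreated V6.5 cells and were listed at 0 in the shRNA pair, C1qc was listed at 0 in all 3, and Ptprc was listed at 0 in untreated V6.5 cells and was 0.331 and 0.480 FPKM in the pair. The 9 fibroblast markers were split. Against untreated V6.5 cells, NTC cells were lower in 2 of 7 tested, Twist2 (3.55 and 0.105 FPKM) and S100a4 (3.44 and 0.0666 FPKM), and higher in 1, Vim (70.2 and 154 FPKM), and iPSCs were lower in 3 and higher in 1, Twist1. Their sums, mostly Vim and Fn1, were 205 FPKM in untreated V6.5 cells, 278 in NTC cells and 103 in iPSCs. The part of MEF-like RNA in the untreated library's collagen values was not tested.

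**Figure D3:**
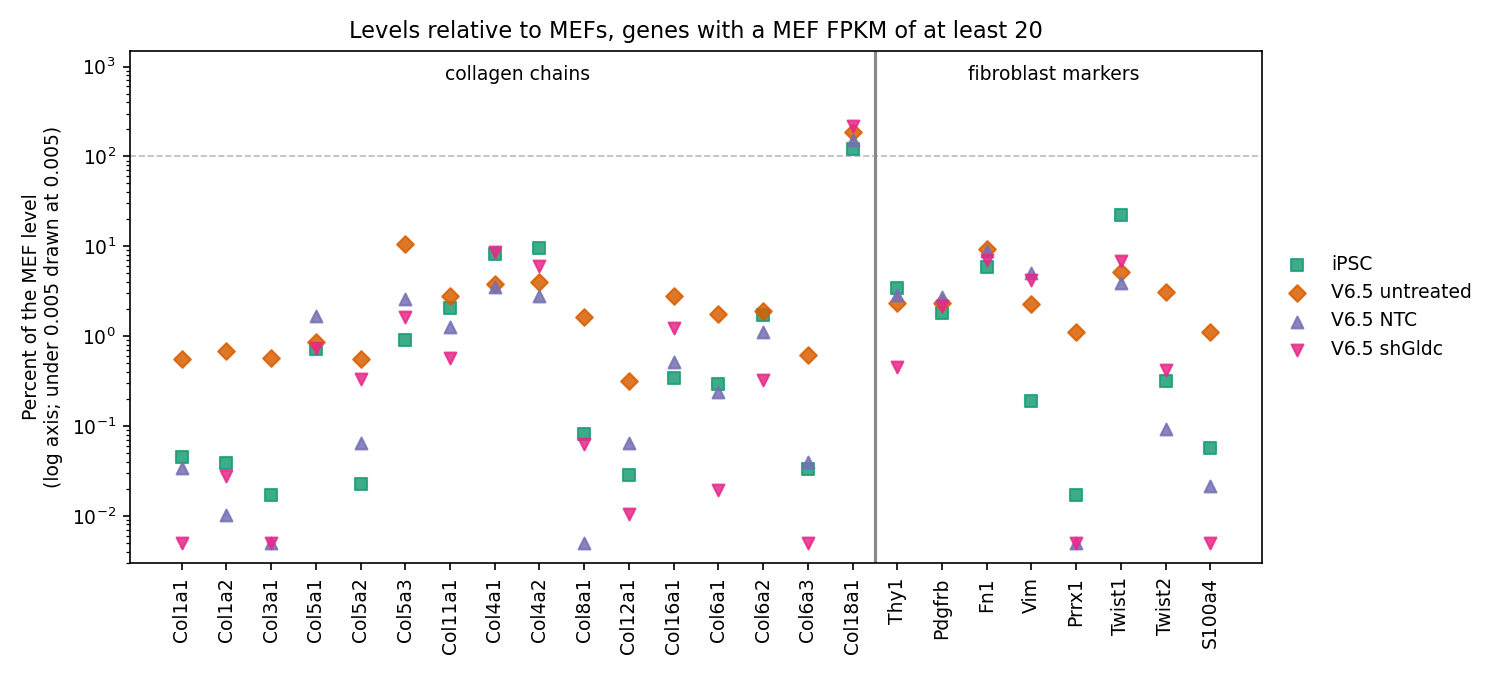
Level in each pluripotent library as a percentage of the MEF level (log axis, values under 0.005 drawn at 0.005, dashed line at 100) for the 16 collagen chains and 8 fibroblast markers with a MEF FPKM of at least 20. Untreated V6.5 cells hold Col1a1, Col1a2, Col3a1 and Col5a2 at 0.559% to 0.689%, above the other 3 libraries, and Col18a1 lies above 100% in all 4.

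Between the 2 V6.5 controls, NTC cells were at least 2-fold lower than untreated cells in 10 of 19 chains and higher in 0, beside 10.3% lower and 4.99% higher among all 12048 genes. The tables were made separately, so that table and shRNA cannot be told apart. The median was -1.05 beside -0.06 over all genes. The lower chains were Col1a2 (-5.57), Col3a1 (-5.05), Col1a1 (-3.95), Col8a1 (-3.74), Col5a2 (-2.72), Col6a1 (-2.71), Col16a1 (-1.98), Col5a3 (-1.92), Col9a2 (-1.28) and Col13a1 (-1.05). All but Col1a1, Col9a2 and Col13a1 lay under 1 FPKM in NTC cells and so entered only through the untreated library, where they were higher. Col3a1 and Col8a1 were listed at 0 in NTC cells, so that their sizes lean on the 0.1 added to each FPKM. The iPSC comparison shares this untreated library. Col4a1 at -0.09, Col18a1 at -0.30 and Col2a1 at -0.45 were among the 9 within the line, as were Col26a1 at 0.97 and Col5a1 at 0.95, just under it.

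The comparison of shGldc with NTC cells addressed the effect of Gldc knockdown. Of 14 chains tested, 4 lay above the 2-fold line and 3 below its inverse, beside 8.97% higher and 7.68% lower among all 11969 genes, with a median of -0.08 beside 0.04. The higher chains were Col5a2 (2.01), Col4a1 (1.28), Col4a2 (1.11) and Col9a2 (1.07). The lower ones were Col1a1 (-2.57), Col6a2 (-1.66) and Col5a1 (-1.15). Col1a1 rested on about 106 fragments in NTC cells and 10.6 in shGldc cells. Its partner Col1a2, under 1 FPKM in both and so not tested, had about 17.4 and 47.8, and the ratio of Col1a1 to Col1a2 was 5.49 and 0.201, beside 1.34 to 1.96 in the other 3 libraries. The corresponding fragments of Col5a2 were about 25.8 and 133. Of all genes with 1 to 5 FPKM, 31.1% passed the 2-fold line in either direction, as did 3 of 9 chains at that level, so that the low chains sat near the background. Both chains with 5 to 20 FPKM, Col4a2 and Col5a1, passed it, where 14.4% of all genes did. Of the 3 chains with 20 to 100 FPKM, Col4a1 and Col9a2 passed and Col18a1 at 0.51 did not, where 6.0% of all genes did. Against untreated V6.5 cells, across the tables, 2 of 20 chains were higher and 9 lower, beside 9.89% and 13.9% of all genes. Of the 7 chains past the line against NTC cells, Col4a1 (1.19), Col1a1 (-6.52) and Col6a2 (-2.40) stayed past it. Col4a2 at 0.60 and Col5a1 at -0.20 fell within it, as did Col5a2 at -0.71 and Col9a2 at -0.21, which also changed sign.

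The type IV pair was higher in both shGldc cells over NTC cells and iPSCs over untreated V6.5 cells, which share no library, although Col4a2 in shGldc cells was within 2-fold of untreated V6.5 cells. Markers of primitive and parietal endoderm, a cell type known for basement membrane collagen, stood higher in the same libraries: over the 8 genes, 3 of 5 tested were at least 2-fold higher in shGldc cells and 4 of 6 in iPSCs, and 0 lower, beside 8.97% and 10.1% of all genes higher. Gata6 was 0.462 FPKM in NTC cells and 8.22 in shGldc cells, 0.646 in untreated V6.5 cells and 4.46 in iPSCs. Gata4 was 2.38 and 7.84, and 3.52 and 9.99 FPKM. The summed endoderm list was 54.6 FPKM in NTC cells and 95.2 in shGldc cells, 139 in untreated V6.5 cells and 185 in iPSCs, most of it Sparc. The simple epithelial keratin Krt18 was 11.9 FPKM in NTC cells, 95.4 in shGldc cells, 20.8 in untreated V6.5 cells and 234 in iPSCs, and the 6 epithelial markers summed to 148, 304, 211 and 595 FPKM. The difference in this sum lay in Krt18 and Krt8, and Krt8 was 9.09, 79.4, 9.98 and 171 FPKM in that order. The epithelial adhesion gene Cdh1 differed by -0.18 in shGldc over NTC cells and by -0.11 in iPSCs over untreated V6.5 cells, Epcam by 0.40 and 0.27, and Krt14 was listed at 0 in NTC and shGldc cells. Of the 5 endothelial markers, 1 of 2 tested was higher in shGldc cells, Tie1 (0.188 and 3.09 FPKM), and 2 of 2 in iPSCs, Tek and Pecam1, and 0 lower, with sums of 22.0, 31.5, 15.7 and 38.3 FPKM in the same order, most of it Pecam1. Cdh5, which defines endothelium, was at most 0.249 FPKM in these 4 libraries. The part of endoderm-like, epithelial or endothelial cells in the type IV values was not tested.

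**Figure D4:**
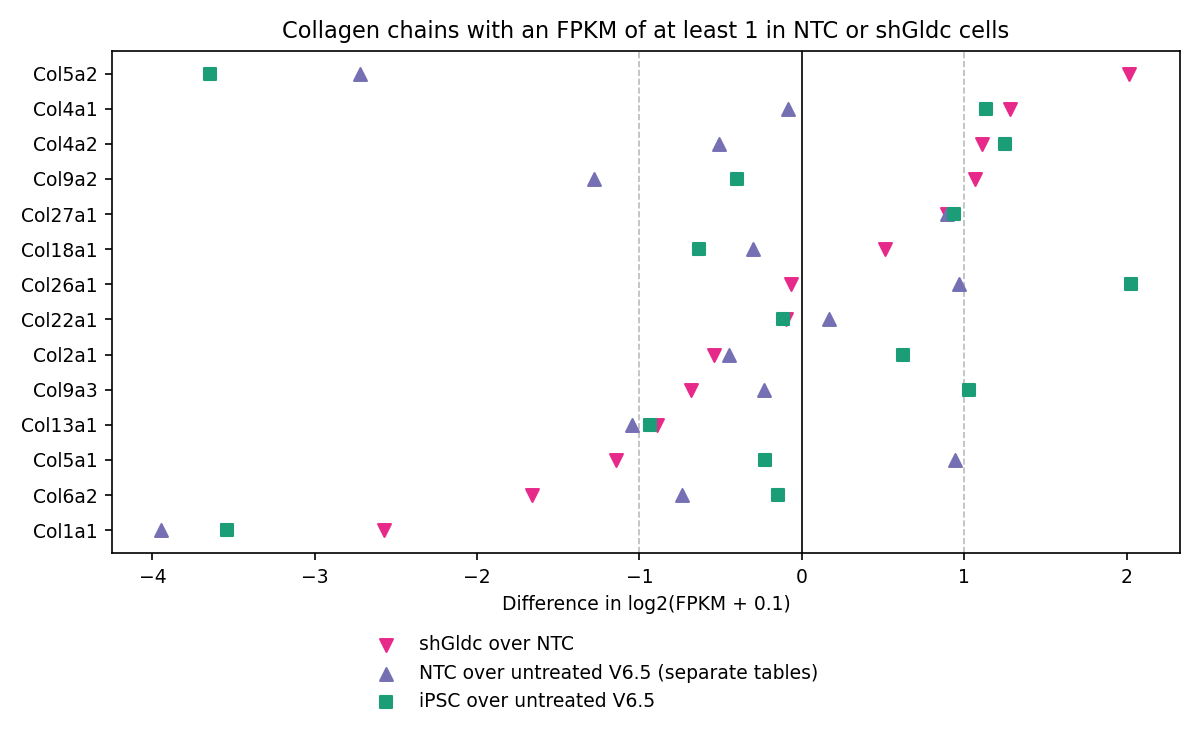
Difference in log2(FPKM + 0.1) of the 14 chains with 1 FPKM in NTC or shGldc cells, for shGldc over NTC, NTC over untreated V6.5 (separate tables) and iPSC over untreated V6.5, with dashed lines at 2-fold. Col4a1 and Col4a2 lie between 1.11 and 1.28 in both shGldc over NTC and iPSC over untreated V6.5, and Col1a1 is below the line in all 3.

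The genes that modify, process, crosslink, bind and degrade collagen were followed as a list of 53, all present in both tables. In untreated V6.5 cells 37 of the 44 tested were at least 2-fold lower than in MEFs and 1 was higher, Pcolce2, which enhances propeptide cleavage, with a median of -3.54, beside the 23.3% lower and 30.3% higher of all genes. In iPSCs 36 of 44 were lower and 0 higher, with a median of -3.51, beside 21.3% and 31.5% of all genes. The smallest differences were in the modifying enzymes and chaperones, which also serve other secreted proteins, with medians of -2.32 in untreated V6.5 cells and -2.26 in iPSCs. The 5 lysyl oxidases had medians of -4.60 and -5.30, and the fibril-binding proteoglycans -5.60 and -7.83 over 5 of 6 tested. Propeptide processing genes had medians of -3.50 and -3.60, receptors and uptake genes -4.78 and -5.35, and collagen-cutting proteases -2.57 and -4.21. Serpinh1 was 833 FPKM in MEFs and still 114 in iPSCs and 67.0 in untreated V6.5 cells, and P4hb, the shared subunit of prolyl hydroxylase, 683, 203 and 208 FPKM.

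Between iPSCs and untreated V6.5 cells 7 of the 32 tested were lower and 2 higher, beside 7.44% and 10.1% of all genes. Between NTC and untreated V6.5 cells 12 of 31 were lower and 0 higher, beside 10.3% and 4.99%. Lox, at 5.44 FPKM in untreated V6.5 cells, was 0.105 in iPSCs and listed at 0 in NTC cells, and Bgn was 36.5, 3.23 and 0.0702 FPKM. Both stood in the order of Col1a1 and Col3a1 across these 3 libraries. Between shGldc and NTC cells 5 of 29 were higher and 4 lower, beside 8.97% and 7.68% of all genes, with a median of 0.06. The largest difference was that of Bgn at 3.19, from 0.0702 FPKM in NTC cells to 1.46 in shGldc cells. Serpinh1 was 204.5 FPKM in shGldc cells against 45.7 in NTC cells, a difference of 2.16, and the prolyl hydroxylase subunit P4ha2 was 17.4 against 8.15 FPKM. The propeptidase Bmp1 differed by 1.25. Pcolce, an enhancer of that propeptidase, was 8.83 against 53.6 FPKM, a difference of -2.59, and the gelatinase Mmp2 was 2.38 against 9.34 FPKM. The remaining genes past the line were the prolyl hydroxylase P3h2 (2.12), the lysyl oxidase Loxl2 (-1.19) and Pcolce2 (-1.18). Against untreated V6.5 cells, across the tables, Serpinh1 (1.61), P3h2 (2.04), Pcolce (-2.97), Mmp2 (-2.70) and Loxl2 (-3.13) stayed past it. P4ha2 (0.76), Bmp1 (0.61) and Pcolce2 (-0.40) fell within it, and Bgn changed sign (-4.56). In iPSCs over untreated V6.5 cells, where the type IV pair was also higher, Serpinh1 differed by 0.76 and P4ha2 by 0.56, both within 2-fold.

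The classes also differ in gene structure, which the grouping by assembly did not use. Of 649 coding exons of the 11 fibrillar chains, 47.0% were exactly 54 nt long, with a range from 41.2% in Col1a1 to 55.0% in Col24a1, and 82.4% had a length that is a multiple of 9 nt. A 54-nt exon encodes whole Gly-X-Y triplets, the repeat that lets the chains wind together. The share of 54-nt exons was 25.2% of 432 in the FACIT chains, 6.9% of 622 in the other chains and 4.0% of 302 in the network-forming chains. The range in FACIT chains ran from 6.2% in Col12a1 to 44.4% in Col22a1, so that this class overlapped the fibrillar one, whereas no network-forming chain was above 5.7%. Exons with a length that is a multiple of 9 nt were common in every class, with 53.0% in the FACIT, 54.5% in the other and 45.0% in the network-forming chains.

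**Figure D5:**
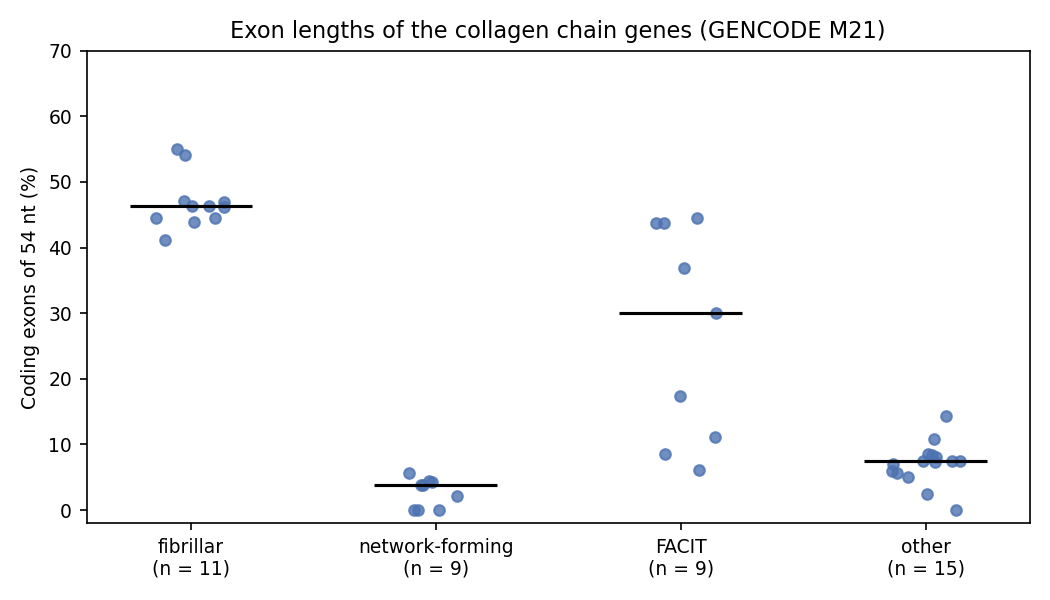
Share of coding exons that are 54 nt long (%) in the transcript with the longest annotated coding sequence of each of the 44 chains, by class, with each class median as a line. The 11 fibrillar chains lie between 41.2% and 55.0%, and the 9 network-forming chains at or under 5.7%.

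Another annotated gene covers part of an exon in 13 of the 44 chains, among them Col3a1, Col4a1, Col4a2, Col5a1, Col7a1 and Col9a3, and their values are uncertain to that extent. The covered share was at most 6.07% of the exon length in any of them, and 31 chains had none. Col3a1 and Col5a2 are neighbours on chromosome 1, tail to tail and 24614 nt apart, and their FPKM ratio was 1.37 in MEFs, 1.38 in untreated V6.5 cells and 1.03 in iPSCs, where both were under 0.1 FPKM, whereas in NTC and shGldc cells Col3a1 was listed at 0.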

How the data were processed

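RNA-seq was analysed from 5 mouse libraries, 1 per group. The authors deposited FPKM per gene in 2 tables; per the labels, libraries were made with the NEBNext Ultra RNA kit, and the submitters' processing notes name TopHat2 2.1.0, SAMtools 1.7 and StringTie 1.3.4d with mm10 (mm9 is listed too). The annotation behind the tables is not given in the sources used here.

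Collagen chains were matched by symbol. Differences are log2((FPKM + 0.1)/(FPKM + 0.1)) over genes with FPKM of at least 1 in either library, with a 2-fold line and all genes tested as background (Python 3.11.15, pandas 2.3.3, numpy 2.4.6). With 1 library per group no test was possible. Scripts were tested on simulated data. Every member with 1 FPKM in any library is named with its values. Members, pathway genes and markers were chosen with earlier results of these data known. Positions, exons and overlaps come from GENCODE M21 (mm10), and overlap was counted on either strand. Depth was estimated from the spacing of low values in 5723 single-transcript genes. Planned protein features were not analysed here, and exon lengths were described instead. Other settings of pseudocount, filter, scaling, fold line and control are in the closing section.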

Additional observations from a re-analysis of the deposited data

How the results depend on the processing

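No paired analysis was possible because each group holds 1 library, and none could be left out. A count or share was taken as kept within 1.5 times its value and a log2 median or difference within 0.594, the robust SD of NTC over untreated V6.5 cells over all genes, and only a value past 2-fold could count as reversed. Of 149 recomputed counts, shares and medians 109 were kept, 40 moved and 0 reversed, although 2 medians within 2-fold changed sign, and of 612 single-gene differences 494 were kept, 111 moved and 7 reversed. The NTC library in place of the untreated one and a floor of 3 fragments were added after seeing the data. For V6.5 over MEFs, the higher chains were 2 at FPKM of at least 5 and 2 without overlapping chains, and the median was -3.66 with a pseudocount of 1, -2.27 without a filter, -5.69 at FPKM of at least 5 and -5.52 with NTC cells. For iPSCs over MEFs, the higher chains were 11 without a filter and 1 at FPKM of at least 5, and the median was -3.54 with a pseudocount of 1 and -2.42 without a filter. For iPSCs over untreated V6.5 cells, the higher chains were 2 at FPKM of at least 5, 1 at a 4-fold line and 1 without overlapping chains, the lower ones 2 at FPKM of at least 5 and 1 with NTC cells, and the median -2.36 without overlapping chains and 0.74 with NTC cells (from -0.63), where Col1a1 (0.41), Col1a2 (1.56), Col3a1 (0.97), Col6a1 (0.27) and Col8a1 (0.69) reversed, all but Col1a1 at under 1 FPKM in both libraries. For shGldc over NTC cells, the higher chains were 8 without a filter, 1 at 4-fold, 2 without overlapping chains and 2 against untreated V6.5 cells, the lower ones 1 with a pseudocount of 1, 5 without a filter, 1 at FPKM of at least 5, 1 at 4-fold and 9 against untreated V6.5 cells, and the median 1.07 at FPKM of at least 5 (from -0.08) and -0.96 against untreated V6.5 cells, where Col5a2 (-0.71) and Col9a2 (-0.21) reversed. For NTC over untreated V6.5 cells, the higher chains were 1 with a pseudocount of 0.01, 2 at equal FPKM sums and 2 centred on the median of all genes, the lower ones 4 at FPKM of at least 5 and 6 at 4-fold, and the median -0.44 without a filter and -1.92 without overlapping chains. Weighting by transcript length gave collagen 4.55% of the sum in MEFs, 0.0638% in iPSCs, 0.0851% in untreated V6.5 cells, 0.0511% in NTC cells and 0.0736% in shGldc cells. Settings that add or drop chains or samples change the numbers by construction, and the cause was otherwise not tested. For V6.5 over MEFs, 29 chains were tested, but 44 without a filter, 23 at FPKM of at least 5 and 20 without overlapping chains. Shares of all genes were not computed under these settings. Chains under 1 FPKM rest on few fragments, and the depth of the NTC and shGldc libraries is known only within a factor of 2.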
